A study of Homo sapiens with 6 samples.

Results

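The metallothioneins described here are the 6 genes MT1E, MT1F, MT1G, MT1M, MT1X and MT2A, chosen by name from the 61228 gene names of a table of RNA-seq counts. The table sets 3 libraries of MDA-MB-231 cells, whose treatment label gives a knockout of the ETS transcription factor genes ETV1, ETV4 and ETV5 (KO), against 3 libraries of control cells. MDA-MB-231 is a human line from a triple-negative, basal-like breast carcinoma. Both groups had been nucleofected with Cas9, the KO cells with guides to the targeted genes and the control cells with control guides, and both were grown in droplets of collagen I, a fibrillar collagen abundant in connective tissue. The titles of the KO samples name ETV4 alone, and their library names carry a common, unexplained tag (c39), so that it is not known whether they represent a single clone. Nothing in the labels says whether replicates are separate cultures. The p-values below rest on the spread among these libraries, and that spread may be technical.

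Metallothioneins are small cytosolic proteins in which many cysteines hold zinc, copper or cadmium ions in metal-thiolate clusters. They buffer zinc, bind toxic metals and react with oxidants. Their genes are classical targets of the zinc-sensing transcription factor MTF1, which binds metal response elements in their promoters, and several also respond to glucocorticoids. In human cells MT2A is usually the most abundant form, while the MT1 forms come from a row of duplicated genes whose use differs between tissues.

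All 6 genes lie in the metallothionein cluster on chromosome 16 of GRCh38 (GENCODE release 29). MT2A (ENSG00000125148) spans 56608199 to 56609497, MT1E (ENSG00000169715) 56625475 to 56627112, MT1M (ENSG00000205364) 56632233 to 56633986, MT1F (ENSG00000198417) 56657694 to 56660698 and MT1X (ENSG00000187193) 56682424 to 56684196, all on the plus strand. MT1G (ENSG00000125144) spans 56666731 to 56668065 on the minus strand. Each has 3 exons and a coding sequence of 186 bases, in which 20 of the 61 codons before the stop codon are cysteine codons (tgc or tgt). The coding sequences of the 3 members with more than a few counts are shown because their likeness bears on how reads can be told apart. Capitals in MT1E and MT1X mark bases that differ from MT2A, and capitals in MT2A mark bases at which either of the others differs. The coding parts span chromosome 16 positions 56608656 to 56609354, 56625852 to 56626971 and 56682541 to 56684049 of the plus strand, introns left out here.
MT2A: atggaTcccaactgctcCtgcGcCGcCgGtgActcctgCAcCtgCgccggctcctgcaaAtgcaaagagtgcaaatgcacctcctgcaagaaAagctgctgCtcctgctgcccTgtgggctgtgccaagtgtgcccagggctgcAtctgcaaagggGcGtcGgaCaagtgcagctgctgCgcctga
MT1E: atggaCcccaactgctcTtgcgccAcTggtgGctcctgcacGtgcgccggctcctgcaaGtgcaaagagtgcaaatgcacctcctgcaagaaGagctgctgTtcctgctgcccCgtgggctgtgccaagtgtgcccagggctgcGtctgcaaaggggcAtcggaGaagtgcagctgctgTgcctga
MT1X: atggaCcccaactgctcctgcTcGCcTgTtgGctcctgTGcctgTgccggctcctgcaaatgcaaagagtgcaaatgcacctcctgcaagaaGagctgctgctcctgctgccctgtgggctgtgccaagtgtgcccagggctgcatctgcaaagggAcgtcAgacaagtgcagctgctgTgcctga
MT1E and MT1X each differ from MT2A at 14 of 186 bases (92.5% identity), and from each other at 17 (90.9%). Over all pairs of the 6 members, identity ran from 88.7% for MT1F with MT1X to 95.2% for MT1G with MT2A.

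Over whole transcripts, with their untranslated ends, less is shared. Of all windows of 50 bases in the RefSeq-matched transcript of MT2A, 4.88% also occurred without a mismatch in another metallothionein gene or pseudogene. The share was 5.34% for MT1E, 3.59% for MT1F, 7.05% for MT1M, 16% for MT1X and 20.2% for MT1G. The 786 bases of the MT2A transcript take in the 250 bases before the RefSeq start of the gene. For MT2A counted from that start, the share was not computed and may be higher. In windows of 75 bases the share was 0% for MT2A, 0.794% for MT1E and 7.18% for MT1X, and in windows of 100 bases it was 0% for all 6. MT1X also shares 29.2% of its windows of 50 bases, and 19.1% of those of 100, with AC026461.1, whose annotated exons overlap those of MT1X. The sources used here do not give the read length, the strand setting or the treatment of reads with several possible origins, so the division of reads between these copies is uncertain, most of all for MT1X and MT1G.

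The promoters of MT2A and MT1X are shown because these were the members found in the promoter set used here. Each is the 250 bases before the RefSeq start (GRCh38.p14, plus strand), chr16:56608334-56608583 for MT2A and chr16:56682220-56682469 for MT1X. Capitals mark the core of the metal response element, searched as TGCACNC and TGCGCNC on both strands.
MT2A: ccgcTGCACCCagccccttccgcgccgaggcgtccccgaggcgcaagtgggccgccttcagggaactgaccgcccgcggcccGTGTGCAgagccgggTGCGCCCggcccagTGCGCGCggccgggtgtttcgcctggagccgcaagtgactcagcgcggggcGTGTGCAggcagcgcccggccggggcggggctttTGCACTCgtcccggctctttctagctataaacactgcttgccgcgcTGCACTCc
MT1X: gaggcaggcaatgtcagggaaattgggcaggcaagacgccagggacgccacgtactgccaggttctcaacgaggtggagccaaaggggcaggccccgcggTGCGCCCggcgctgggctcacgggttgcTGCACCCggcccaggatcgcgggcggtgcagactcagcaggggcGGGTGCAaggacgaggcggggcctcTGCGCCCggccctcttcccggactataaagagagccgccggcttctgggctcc
The MT2A window held 7 matches and the MT1X window 4. Among 35116 promoter windows of the same length, 24.8% held at least 1 match, 0.37% held 4 or more and 0.0313% held 7 or more. In MT2A the match nearest to the start lay at -8 to -2 and the next at -54 to -48, and in MT1X the nearest lay at -53 to -47. Neither window held AGGAAG or CCGGAA, 2 longer forms of the core bound by ETS factors, on either strand. The shorter GGAA inside both strings was not counted, and both windows hold it (as ggaa, or as ttcc for the other strand). AGGAAG was found in 28.7% of all windows and CCGGAA in 14.5%. A match in the letters is no evidence of binding, and a missing match says only that these letters are not in this window.

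Counts per library summed to between 18042601 and 23232770, and levels are given in CPM (counts relative to the library's total, corrected with TMM factors). A count of 0 allows up to 3 counts, worth between 0.128 and 0.165 CPM in these libraries, and this limit covers counting error only. The targeted genes ETV1 (135 to 155 CPM in KO, 213 to 238 CPM in control) and ETV4 (61.5 to 65.5 CPM in KO, 91.4 to 95.3 CPM in control) were lower in KO, and ETV5 (112 to 114 CPM in KO, 108 to 117 CPM in control) was not. These are mRNA levels, and counts per gene do not show whether a gene was cut or its protein lost. Markers of the line, VIM, CD44, AXL, KRT8 and KRT18, summed to 6825 to 8261 CPM in KO and 7654 to 9608 CPM in control. Of the 3 receptor genes expected to be low, ESR1 and PGR stayed under 1 CPM, but ERBB2 did not. The 3 summed to 54.5 to 57.5 CPM in KO and 58.1 to 65.1 CPM in control, nearly all of it ERBB2. Of 6 fibroblast markers 4 stayed under 1 CPM, with sums of 11.8 to 14 CPM in KO and 13.2 to 13.6 CPM in control; all 4 leukocyte markers stayed under 1 CPM, CD3E among those at 0. The endothelial markers summed to 3.08 to 4.88 CPM in KO and 6.12 to 7.38 CPM in control, nearly all of it PECAM1, with CDH5 at 0. In the table as a whole, replicate 3 of both groups stood apart from replicates 1 and 2.

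MT2A, MT1E and MT1X carried nearly all metallothionein counts in these cells, and none of the 3 passed the test between KO and control. MT2A was the most abundant, MT1E followed and MT1X was lower still, while MT1F was near the limit of detection and MT1G and MT1M were at or below it. The 6 members together took 0.0613%, 0.0596% and 0.0423% of all counts in KO replicates 1, 2 and 3, and 0.0621%, 0.06% and 0.044% in control replicates 1, 2 and 3. Summed, they reached 615, 596 and 419.8 CPM in KO, against 628, 608 and 435 CPM in control. The groups overlapped, and in both groups replicate 3 was the low one. The sum averaged 544 ± 108 CPM in KO and 557 ± 106 CPM in control (SD, n = 3 each), a difference of -0.04 on the log2 scale, KO minus control, against a pooled SD of 0.3. In bulk RNA of this kind, fewer cells with a transcript and less of it per cell cannot be told apart. Between libraries with the same number the log2 differences were -0.03, -0.03 and -0.05.

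MT2A, the main stress- and zinc-inducible form, measured 525, 511 and 316 CPM in KO replicates 1, 2 and 3, against 542, 526 and 336 CPM in control replicates 1, 2 and 3. The values overlapped between groups and in each group replicates 1 and 2 were high and replicate 3 low. The means were 451 ± 117 CPM in KO and 468 ± 114 CPM in control, and the log2 fold change, KO over control, was -0.05 with an SE of 0.26 (edgeR adjusted p = 0.927). The 95% interval of that difference ran from 0.628-fold to 1.48-fold. Set against the control library of the same number, KO was 0.969-fold, 0.971-fold and 0.941-fold. In the fit blocked on replicate number the interval of the log2 fold change narrowed to -0.12 to 0.01, around -0.06 (SE 0.03, edgeR adjusted p = 0.164).

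MT1E, the most abundant MT1 form in these libraries, measured 80.4, 74.5 and 77.2 CPM in KO replicates 1, 2 and 3, against 74.2, 70.1 and 69.8 CPM in control replicates 1, 2 and 3. The groups did not overlap, though by little: the lowest KO library lay just above the highest control library. Groups without overlap were found for 31.7% of the tested genes, with KO higher for 14.9%. The means were 77.4 ± 2.97 CPM in KO and 71.4 ± 2.41 CPM in control, with 0.12 as the log2 fold change (SE 0.06; edgeR adjusted p = 0.275; interval 0.986-fold to 1.19-fold). With the replicate block MT1E passed, at an edgeR adjusted p of 0.049 (log2 fold change 0.12, SE 0.05, interval 0.02 to 0.21). In that fit 17.2% of all tested genes passed with KO higher.

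MT1X, the other MT1 form that passed the filter on low counts, measured 9.80, 10.3 and 26.1 CPM in KO replicates 1, 2 and 3, against 12.3, 11.4 and 28.0 CPM in control replicates 1, 2 and 3. Here replicate 3 was the high library in both groups, and the groups overlapped. The means were 15.4 ± 9.30 CPM in KO and 17.2 ± 9.34 CPM in control, and the log2 fold change was -0.17 with an SE of 0.56 (edgeR adjusted p = 0.892). Its interval was wide, from 0.333-fold to 2.36-fold. KO was 0.798-fold, 0.9-fold and 0.933-fold the control library of the same number, and with the replicate block the log2 fold change was -0.18 (SE 0.09, edgeR adjusted p = 0.128, interval -0.36 to 0.00).

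**Figure D1:**
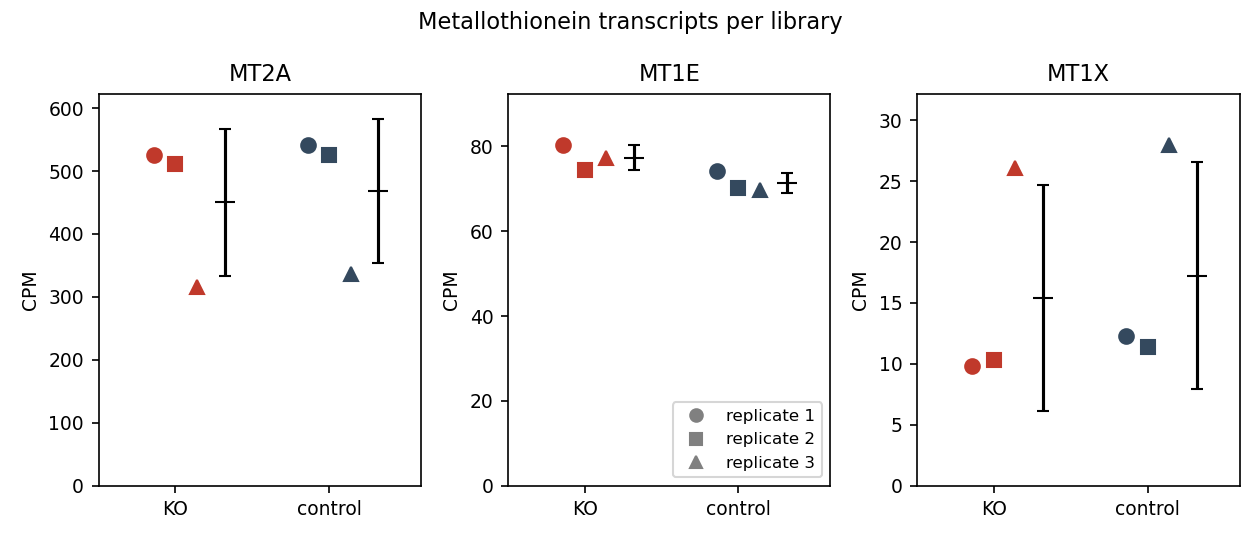
Levels of MT2A, MT1E and MT1X in CPM (vertical axes, starting at 0) in each KO and control library; circles, squares and triangles are replicates 1, 2 and 3, and the bar is the mean with its SD (n = 3). Replicate 3 (triangles) is the lowest library for MT2A (316 CPM in KO, 336 CPM in control) and the highest for MT1X (26.1 CPM in KO, 28.0 CPM in control), while MT1E stays between 69.8 and 80.4 CPM.

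Of the 6 members, 3 passed the filter on low counts, and of these 0 passed edgeR's test, against 9.7% of the 14704 genes tested (3.28% higher and 6.42% lower in KO). At an unadjusted p under 0.05 the count was also 0, and DESeq2 called 0. With the replicate block 1 of 3 passed, against 33.9% of all genes. Without replicate 3 of both groups none passed, while 3754 genes passed over the whole table, beside 1427 with group alone on all libraries. The log2 fold changes there were -0.04 for MT2A (SE 0.04, edgeR adjusted p = 0.442), 0.10 for MT1E (SE 0.06, edgeR adjusted p = 0.22) and -0.24 for MT1X (SE 0.12, edgeR adjusted p = 0.139). The SE of MT2A and MT1X was smaller in that fit and in the blocked fit than with group alone. A p that misses the threshold does not show that the groups were alike.

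**Figure D2:**
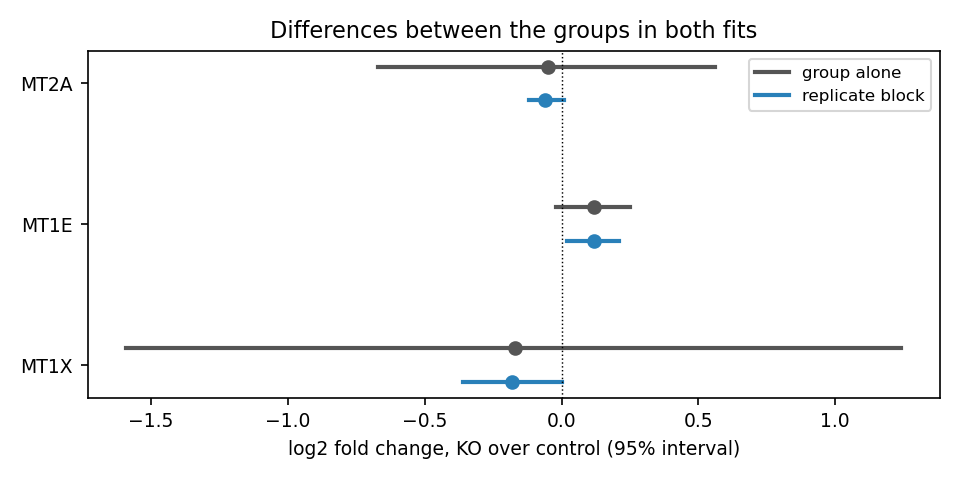
Log2 fold change, KO over control (horizontal axis), of the 3 tested members with its 95% interval, from the fit with group alone (grey) and the fit with the replicate number as a block (blue). For MT2A the interval is -0.67 to 0.56 with group alone and -0.12 to 0.01 with the block; the MT1E interval excludes 0 only with the block.

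The remaining members were barely detected. MT1F had 5, 7 and 4 counts in KO replicates 1, 2 and 3 and 5, 10 and 16 counts in control replicates 1, 2 and 3, or 0.22 to 0.363 CPM in KO and 0.236 to 0.68 CPM in control, with overlap between the groups. With no filter on low counts its log2 fold change was -0.77 (SE 0.59, edgeR adjusted p = 0.6). MT1G had 0 counts in every KO library and 1 count in all of the control libraries together, in replicate 1, and MT1M had 0 counts in all 6 libraries. No fold was computed for either. Outside the 6 members, 15 further metallothionein genes and pseudogenes held 9, 9 and 3 counts in KO and 7, 6 and 7 counts in control. Of these, 10 had no count at all, including MT1B, MT1H, the brain form MT3 and the squamous-epithelial form MT4. The others were the gene MT1A with 13 counts over all libraries and the pseudogenes MT2P1 with 21, MT1XP1 with 3, MT1P1 with 2 and MT1P3 with 2.

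Per kilobase of the RefSeq-matched transcript, the order of levels was MT2A, MT1E, MT1X and MT1F in every library. MT2A reached 668, 649.9 and 402 CPM per kilobase in KO and 689, 669 and 428 CPM per kilobase in control. Its length of 786 bases takes in the promoter window before the RefSeq start. Counted from that start, the MT2A values would be higher. MT1E lay at 114, 106 and 109.6 CPM per kilobase in KO and 105, 99.6 and 99.2 CPM per kilobase in control, well below MT2A and above MT1X in each library. MT1X measured 21.8, 22.8 and 58.1 CPM per kilobase in KO and 27.3, 25.4 and 62.3 CPM per kilobase in control. These neighbours in the order did not overlap over the 6 libraries.

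The make-up of the family differed between replicate 3 and the other libraries, in the same way in both groups. MT2A supplied 85.3%, 85.7% and 75.3% of the metallothionein counts in KO replicates 1, 2 and 3, against 86.2%, 86.5% and 77.3% in control replicates 1, 2 and 3. MT1E supplied 13.1%, 12.5% and 18.4% in KO and 11.8%, 11.5% and 16.1% in control. MT1X supplied 1.59%, 1.72% and 6.23% in KO and 1.96%, 1.88% and 6.44% in control. For every 100 counts of MT2A there were 1.87, 2.01 and 8.27 counts of MT1X in KO, against 2.27, 2.17 and 8.33 in control. This ratio was high in replicate 3 of both groups and low in the other libraries.

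**Figure D3:**
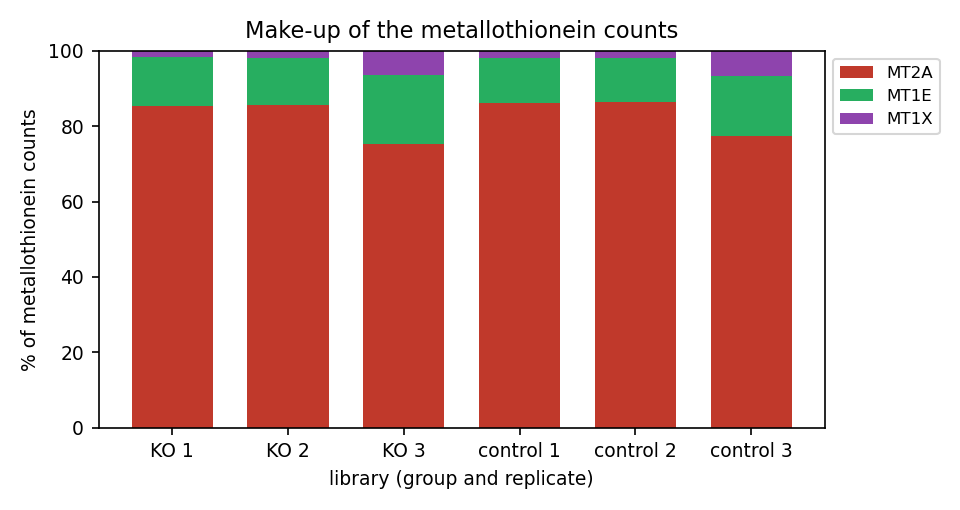
Share of the metallothionein counts (vertical axis, %) supplied by MT2A, MT1E and MT1X in each library (KO left, control right). MT1X takes 6.23% in KO replicate 3 and 6.44% in control replicate 3, against 1.59% to 1.96% in the other libraries.

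The level of MT2A in replicate 3 was 0.611 times the mean of replicates 1 and 2 in KO and 0.63 times in control. MT1X was 2.60 times in KO and 2.36 times in control, and MT1E 0.996 times in KO and 0.968 times in control. Over 14681 tested genes with counts in every library, the median of this log2 ratio was 0.00 in KO and -0.02 in control, and 90% of genes are bounded by the 5th and 95th percentiles of -0.53 and 0.69 in KO and -0.51 and 0.6 in control. MT2A lay below this range in both groups (-0.71 in KO, -0.67 in control), with 3.32% of genes lower in KO and 3.26% lower in control. MT1X lay above it (1.38 in KO, 1.24 in control), with 0.64% of genes higher in KO and 0.742% higher in control. MT1E sat near the median. No test was made of this difference between replicate numbers, which the labels tie to no day or batch.

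**Figure D4:**
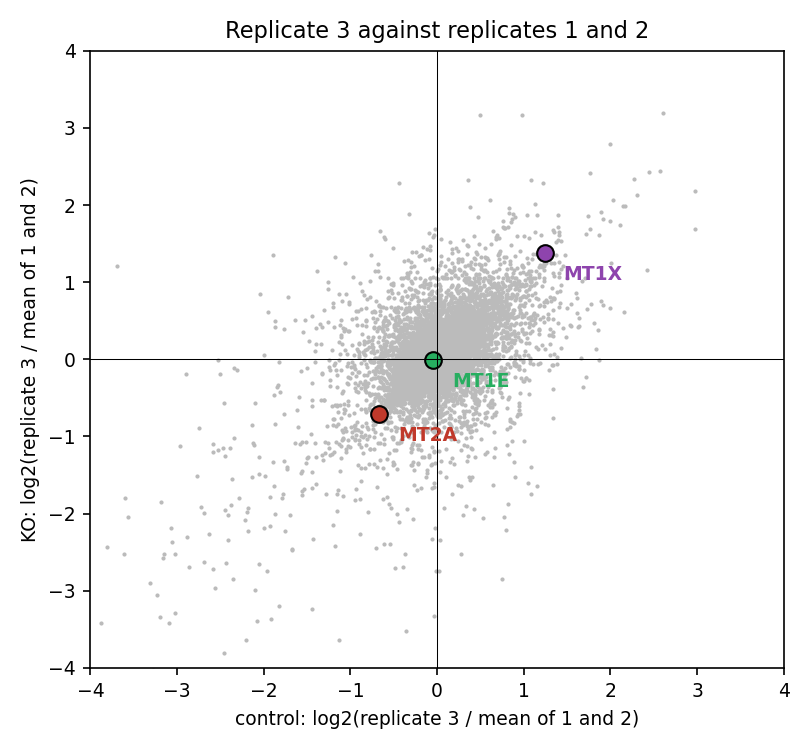
Log2 ratio of replicate 3 to the mean of replicates 1 and 2 in control (horizontal axis) and in KO (vertical axis) for 14681 tested genes (grey; 15 lie outside the axes), with MT2A, MT1E and MT1X marked. MT2A lies low in both groups, MT1X high in both and MT1E near the origin.

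Other values of the replicate 3 libraries can be set beside these. Mitochondrially encoded transcripts took 3.82%, 2.65% and 2.95% of the counts in KO replicates 1, 2 and 3 and 3.15%, 4.26% and 3.25% in control, so that replicate 3 lay between the others in both groups. Among 145 tested processed pseudogenes, whose sequences copy those of expressed genes, 20.7% were at least 2-fold lower in replicate 3 in both groups and 4.83% at least 2-fold higher, against 0.268% and 0.31% of 11926 protein-coding genes. Short mRNAs outside the family, with no transcript over 700 bases, had a median log2 ratio of -0.11 in KO and -0.1 in control. The RefSeq-matched transcripts measure 786 bases for MT2A, 704 for MT1E and 450 for MT1X. By these lengths MT2A and MT1E lie over this limit. The length of MT2A takes in the promoter window before the RefSeq start, however. Counted from that start, MT2A would lie under the limit, so the annotated length does not set it apart from the short mRNAs. The parts of shared sequence and of transcript length in the metallothionein values were not tested. These counts of pseudogenes were chosen after the values of the members were seen.

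Across the 6 libraries, the summed level followed MT2A (Pearson r = 0.9995 on log2 CPM). MT2A is part of that sum and supplies 75.3% to 86.5% of its counts, so this r is largely fixed in advance. Of 10808 genes with a mean of at least 5 CPM, the next most alike included RPLP0P6, a ribosomal protein pseudogene (r = 0.9989), SAP30, a subunit of a histone deacetylase complex (0.9984), TMEM158 (0.9981), BRI3 (0.9980), PPP2R1A, a scaffold subunit of protein phosphatase 2A (0.9974), the mitochondrial nuclease ENDOG (0.9974), N4BP1 (0.9972) and WSB2 (0.9970). In replicate 3 these were between 0.288 (RPLP0P6) and 0.864 (PPP2R1A) times their mean of replicates 1 and 2 in KO, and between 0.289 and 0.859 times in control. MT1E had r = 0.1444 with the sum, and MT1X, with r = -0.9677, ranked 10607. For MT1X itself, a choice made after its values were seen, the most alike were PLA2G12A (r = 0.9992), ARL2 (0.9985), the noncoding SNHG29 (0.9982), and the interferon-induced BST2 (0.9970), and RPL22, a ribosomal protein gene, was ninth (0.9953; 234 CPM in KO replicate 3 and 242 CPM in control replicate 3, against 76.0 to 90.3 CPM elsewhere). These correlations describe 6 libraries that fall into replicate 3 and the rest, and carry no test.

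The genes that sense and move metals were described by the same fit, in which 9.7% of all genes passed with group alone and 33.9% with the replicate block (17.2% higher in KO). MTF1, the zinc sensor that drives metallothionein genes, measured 26.8, 28.1 and 30.4 CPM in KO and 27.6, 26.0 and 28.1 CPM in control, overlapping, and its log2 fold change was 0.06 with an SE of 0.08 (edgeR adjusted p = 0.671). SLC30A1, the plasma membrane zinc exporter and another MTF1 target, measured 69.8, 68.0 and 57.2 CPM in KO and 63.5, 60.2 and 57.2 CPM in control (edgeR adjusted p = 0.484, log2 fold change 0.11, SE 0.09). For SLC30A1, as for MT2A, replicate 3 was the lowest library of each group.

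Of 8 tested genes among the zinc sensor and exporters, 0 rose, 1 fell and 7 did not pass, 12.5% beside 9.7% of all genes, with a median log2 fold change of 0.09 beside 0.00. SLC30A3, a vesicular zinc transporter, fell to 0.643, 0.519 and 0.44 CPM in KO, against 1.28, 1.19 and 1.74 CPM in control (edgeR adjusted p = 0.0257, log2 fold change -1.39, SE 0.31). It did not pass without any single library, where the count for the list was 0 in each of the 6 fits, nor in DESeq2. Over all genes 572 to 1741 passed in those 6 fits, beside 1427 with every library. Of 11 tested zinc importers, 0 passed edgeR's test (1 at an unadjusted p under 0.05, 0 in DESeq2; median 0.05), and 1 passed without KO replicate 3. The most abundant importers were SLC39A7, which releases zinc from the secretory pathway (267, 273 and 315 CPM in KO, 247, 251 and 267 CPM in control), and SLC39A14, a zinc and manganese importer (110.3, 112 and 90.3 CPM in KO, 100, 97.8 and 88.8 CPM in control). Their values overlapped between groups. They passed with the replicate block, SLC39A7 at an edgeR adjusted p of 2.60e-04 and SLC39A14 at 0.0254. With the block 3 of 11 importers were higher and 0 lower, and 3 of the 8 sensor and exporter genes were higher and 1 lower, against 33.9% of all genes in either direction.

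Of 15 tested copper-handling genes, 0 rose, 1 fell and 14 did not pass (6.67% called, beside 9.7% of all genes; median 0.05). STEAP3, a metalloreductase of endosomes, fell to 91.4, 89.0 and 88.2 CPM in KO, against 108, 108 and 108 CPM in control (edgeR adjusted p = 0.014, log2 fold change -0.27, SE 0.05), and the groups lay well apart. It did not pass without KO replicate 1 or 2 or control replicate 1 or 2, where the count was 0. In those fits 686, 662, 591 and 572 of all genes passed, in that order, beside 1427 with every library. With the block 5 of 15 copper genes were higher and 2 lower, beside 33.9% of all genes in either direction.

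Genes of the glucocorticoid response, a known inducer of MT2A in other settings, gave 4 higher, 1 lower and 8 not passing of 13 tested (38.5% called, beside 9.7% of all genes; median 0.09). FKBP5, a steroid receptor co-chaperone and classical target, rose to 118, 122 and 123 CPM in KO, against 90.5, 83.0 and 95.9 CPM in control (edgeR adjusted p = 0.00496, log2 fold change 0.43, SE 0.07). The phosphatase gene DUSP1 (0.36, SE 0.06) and the kinase gene SGK1 (0.34, SE 0.07) rose as well, and ANGPTL4, a lipase inhibitor also known as a hypoxia target, fell (-0.56, SE 0.11). The number past the test was 3 without KO replicate 1 or KO replicate 2, 1 without control replicate 1 and 2 without control replicate 2. The calls over all genes also fell in those fits, from 1427 with every library to 686, 662, 591 and 572, in that order. With the block, where 33.9% of all genes passed, 5 were higher and 4 lower.

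Of 15 genes of heavy-metal and thiol stress, 4 rose, 2 fell and 9 did not pass (40% called, beside 9.7% of all genes; median 0.12). Among those that rose were genes of antioxidant enzymes. NQO1, a quinone reductase, reached 288, 302 and 281 CPM in KO, against 199, 197 and 197 CPM in control (edgeR adjusted p = 6.54e-04, log2 fold change 0.55, SE 0.06). GCLM and GCLC, the subunits of the enzyme that starts glutathione synthesis, rose by 0.51 (SE 0.07) and 0.42 (SE 0.06) on the log2 scale. The chaperone genes BAG3 (-0.38, SE 0.10) and DNAJB1 (-0.22, SE 0.06) fell. Without KO replicate 1 or 2 or control replicate 1 or 2, 3 genes passed, all of them higher. The calls over all genes were 572 to 686 in those fits, beside 1427 with every library. With the block, beside 33.9% of all genes, 9 were higher and 5 lower.

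Of 16 tested neighbours of the cluster at 16q13, 2 fell, 0 rose and 14 did not pass (12.5% called, beside 9.7% of all genes, or 6.42% when only lower genes are counted; median -0.03). PLLP, which encodes a myelin and epithelial membrane protein, measured 5.68, 5.24 and 7.05 CPM in KO, against 10.0, 8.57 and 9.86 CPM in control (log2 fold change -0.67, SE 0.14). HERPUD1, a gene of endoplasmic reticulum stress, had a log2 fold change of -0.26 (SE 0.06). The count was 0 without KO replicate 1 or 2 or control replicate 1 or 2, where 572 to 686 of all genes passed. It was 1 without KO replicate 3, where 1741 of all genes passed, beside 1427 with every library. With the block 4 were higher and 3 lower, beside 33.9% of all genes. Among the 55 tested short mRNAs, 1 rose and 4 fell (9.09% called, beside 9.7% of all genes; median 0.07). TIMM10, a mitochondrial import chaperone, rose (0.31, SE 0.08), and SPANXB1, a cancer-testis gene with near-identical copies (-0.63, SE 0.07), the trefoil peptide gene TFF1 (-1.12, SE 0.19) and C6orf52 (-0.61, SE 0.14) fell. With 1 library left out between 2 and 4 short mRNAs passed, beside 572 to 1741 of all genes. There were 3 without KO replicate 1 and 2 without KO replicate 2, KO replicate 3, control replicate 1 or control replicate 2. With the block 19 were higher and 8 lower, beside 33.9% of all genes.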

How the data were processed

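Polyadenylated RNA of MDA-MB-231 cells grown in collagen I was sequenced in 6 stranded libraries. The deposited values are raw counts of reads per gene name; they come from STAR 2.7.9a, R 4.1.1, FastQC 0.11.9 and featureCounts on hg38, per the submitters' processing notes. The gene annotation is not given in the sources used here. The group came from the treatment label and the replicate number from the title.

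Genes were filtered with edgeR's filterByExpr (14704 kept), scaled with TMM factors and tested with the quasi-likelihood test of edgeR 4.0.16 in R 4.3.3 (group alone, Benjamini-Hochberg adjustment over all tested genes, threshold 0.05). CPM, log2 fold changes, SE and 95% intervals were computed from that fit. Bounds are for the spread between samples; limits for a count of 0 cover counting error only. Alternatives were a replicate block, DESeq2 1.42.0, RLE factors, no scaling factor, no filter, each library left out, and replicate 3 of both groups left out. The members and gene lists were chosen with earlier results of these data known. Named list genes are up to 3 per direction with the smallest adjusted p, or the 2 most abundant where none passed; MTF1 and SLC30A1 were added, and the genes most alike are from the first 10 by Pearson r, of which 1 is not reported here. The lists are other metallothioneins, zinc sensor and exporters, zinc importers, copper handling, glucocorticoid response, heavy-metal and thiol stress, neighbours at 16q13 and short mRNAs.

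Both groups carry replicate numbers 1, 2 and 3. Over 10032 genes, deviations from the group means correlated at 0.55, 0.45 and 0.83 between KO and control libraries of the same number. The replicate block and the comparisons by number took the numbers to pair the libraries, which the labels do not state. KO replicate 1 was more like control replicate 2 (0.58) and KO replicate 2 more like control replicate 1 (0.59). Only replicate 3 was most like its own number, so these values do not bear out the pairing of replicates 1 and 2 by number. No pair of replicates agreed within sampling noise (chi-square per degree of freedom of at least 4.19). On simulated counts of 14477 genes, the comparison recovered 14%, 62%, 84% and 92% of 50 genes each changed 1.25-, 1.5-, 2- and 4-fold, and called 11 unchanged genes. The simulated libraries had no difference shared by replicate 3 of both groups. These rates therefore need not hold for MT2A and MT1X, whose replicate 3 stood apart.

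Sequences are from GENCODE 29 transcripts (GRCh38) and RefSeq promoters (GRCh38.p14), where 2 of the 6 members were matched by symbol. By name, 88.2% of the tested genes were found in GENCODE 29, which need not be the annotation the reads were counted on.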

Additional observations from a re-analysis of the deposited data

How the results depend on the processing

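With the replicate block 1 of the 3 tested members passed, MT1E (log2 fold change 0.12, edgeR adjusted p = 0.049), against 0 with group alone; the cause was not tested. With any 1 library left out 0 members passed; the log2 difference of the summed level ran from -0.21 to 0.16, and the log2 fold changes from -0.24 to 0.17 for MT2A (adjusted p 0.556 to 0.964), 0.1 to 0.15 for MT1E (0.224 to 0.521) and -0.78 to 0.37 for MT1X (0.437 to 0.977). The sign thus turned for MT2A without KO replicate 3 (0.17), control replicate 1 (0.06) or control replicate 2 (0.04). For MT1X it turned without KO replicate 1 (0.07), KO replicate 2 (0.05) or control replicate 3 (0.37). Leaving out any 1 library changes the weight of replicate 3 in its group, also where the sign was kept, and the cause of these turns was not tested. With DESeq2, RLE factors, no scaling factor, no filter or without replicate 3 of both groups, the direction of MT2A, MT1E and MT1X and the count of 0 were kept. The block changed no other call of a member.

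Over all genes 1427 passed, 4983 with the block, 3754 without replicate 3 of both groups and 572 to 1741 with 1 library left out. With the block and without replicate 3 of both groups, in that order, 4 and 4 zinc sensor and exporter genes passed (1 with group alone, 0 in DESeq2), 3 and 2 zinc importers (0), 7 and 5 copper genes (1; 2 with no filter), 9 and 9 glucocorticoid genes (5), 14 and 10 metal and thiol stress genes (6), 7 and 5 neighbours (2) and 27 and 21 short mRNAs (5). MT1F, MT1G and MT1M had at most 16 counts in a library.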
